A study of Mus musculus with 4 samples.

Results

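The 46 genes described here encode receptor subunits for glutamate, GABA and glycine, and they were chosen by name, as listed members of the Gria, Grik, Grid, Grin, Grm, Gabr, Gabbr and Glr families, among the 21938 protein-coding genes of the mouse annotation. They comprised 24 glutamate receptor genes, 18 GABA receptor genes and 4 glycine receptor genes. The question was how many of them carried H3K27me3, the histone mark placed by the Polycomb enzyme Ezh2, in erythro-myeloid progenitors (EMPs), the blood progenitors that arise in the yolk sac. H3K27me3 was profiled by CUT&RUN, in which an antibody directs a nuclease to its target and the released DNA is sequenced, in C57BL/6 EMPs sorted from E10.5 yolk sac. The genotype label of both libraries reads Ezh2fl/fl; Tie2-Cre+/+ together with the words wild type, and the cells were taken as wild type, as the study describes them. EMPs were defined in the study by surface markers (lineage-negative, SCA1-negative, KIT+ and CD41+ among them), so the cells were a sorted population and not a clone or a line. 1 library was made from 500 EMPs and 1 from 15000 EMPs, with an IgG library of each input used by the authors as the peak-calling control. With 1 library per cell number no test between them was possible, and the libraries also differed in sequencing instrument, read length, amplification, depth, alignment rate and peak-calling threshold, from which cell number cannot be told apart. Per the study, the library of fewer cells was sequenced less deeply, and a far smaller part of its reads aligned.

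Glutamate, GABA and glycine are the main fast transmitters of the nervous system. Ionotropic receptors (AMPA, kainate, NMDA, GABA-A and glycine receptors) are ion channels assembled from several subunits, and metabotropic glutamate and GABA-B receptors signal through G proteins. H3K27me3 is found at developmental and tissue-restricted genes that are held silent, often at CpG-rich starts, and neuronal genes are a known class of its targets outside the nervous system. A gene counted as marked when the authors' annotation paired it with a peak at most 3000 bp away. This distance was measured by the authors to the nearer gene end, so it can refer to the 3′ end of a gene. The files gave peaks as present or absent, with no height or read count. The depth behind a single peak was therefore unknown, the difference in depth between the libraries was not corrected for, and an unmarked gene was one at which no peak was called, not one shown to lack the mark.

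With 15000 EMPs, 34 of the 46 receptor genes were marked (73.9%, 95% Wilson interval 59.7 to 84.4), against 16.8% of all protein-coding genes. With 500 EMPs, 20 of the 46 were marked (43.5%, interval 30.2 to 57.8), against 9.77% of all protein-coding genes. The 500-EMP count fell to 13 with a limit of 1 kb (7.47% of all genes) and to 9 with peaks of at least 500 bp (5.23%). The intervals cover counting error over the listed genes only. All 20 genes marked with 500 EMPs were also marked with 15000 EMPs, and they made up 58.8% of the 34. Among all protein-coding genes, 98.4% of those marked with 500 EMPs were marked with 15000 EMPs as well, and these were 57.3% of the larger set. The shares that the libraries had in common were thus close to those of genes at large. Of the remaining 26 members, 14 were marked with 15000 EMPs alone, 12 in neither library and 0 with 500 EMPs alone.

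Glutamate receptor genes were marked more often than GABA receptor genes. With 15000 EMPs, 22 of 24 glutamate receptor genes (91.7%), 10 of 18 GABA receptor genes (55.6%) and 2 of 4 glycine receptor genes (50%) had a peak. With 500 EMPs the corresponding counts were 16 of 24 (66.7%), 4 of 18 (22.2%) and 0 of 4. All protein-coding genes were marked at 16.8% with 15000 EMPs and 9.77% with 500 EMPs. For GABA receptor genes with 500 EMPs the Wilson interval was 9.0 to 45.2%. For glycine receptor genes it was 15 to 85% with 15000 EMPs and 0 to 49% with 500 EMPs. These intervals include the all-gene shares, so they do not set those counts apart from genes at large. The family shares describe a list of genes, many of them neighbours in gene clusters, and no test was made between the families. Of the genes that mark the cells, 0 of 10 genes of the blood programme, including Kit, Runx1, Spi1, Gata1, Tal1 and the CD41 gene Itga2b, had a peak within 3 kb in either library, which allows a share of up to 27.8% (Wilson) and so does not set them apart from genes at large. Of 4 endothelial genes, 0 were marked with 500 EMPs and 1 with 15000 EMPs, Kdr, by a 274-bp peak. Peaks alone therefore did not check the identity of the cells.

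**Figure D1:**
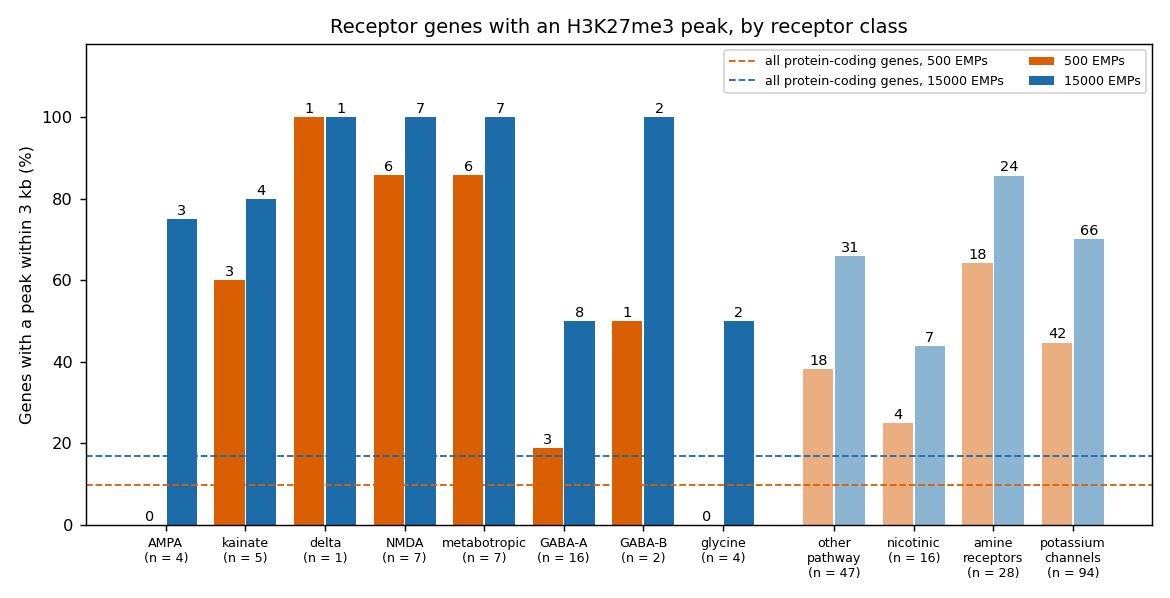
Bars give the percentage of genes with an H3K27me3 peak at most 3 kb away in the 500-EMP (orange) and 15000-EMP (blue) library, with the number of marked genes above each bar and list sizes below. Solid bars are the 8 receptor groups and pale bars 4 comparison lists, and dashed lines mark all protein-coding genes at 9.77% and 16.8%. The NMDA and metabotropic genes were marked in 7 of 7 cases each with 15000 EMPs, and the AMPA and glycine receptor genes had no marked member with 500 EMPs.

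The stretches around the starts of some of these genes are shown because CpG content there differed between marked and unmarked members. Each is the RefSeq promoter of GRCm38.p6, from 250 bases before to 50 bases after the gene start, read 5′ to 3′ on the strand of the gene, with every CpG in capitals. The RefSeq start lay 182 bp upstream of the GENCODE start at Grm3 and 159, 82 and 41 bp downstream of it at Gabbr2, Gabre and Gabra3, and within 4 bp of it at the other genes shown. RefSeq entries matched 35 of the 46 symbols. The first 5 belong to the marked genes with the most bases under 15000-EMP peaks around the start in the AMPA, kainate, metabotropic, GABA-B and glycine receptor families, and the last 2 belong to the unmarked members with the lowest and the highest CpG ratio.
Gria2, chr3:80802786-80803085, minus strand: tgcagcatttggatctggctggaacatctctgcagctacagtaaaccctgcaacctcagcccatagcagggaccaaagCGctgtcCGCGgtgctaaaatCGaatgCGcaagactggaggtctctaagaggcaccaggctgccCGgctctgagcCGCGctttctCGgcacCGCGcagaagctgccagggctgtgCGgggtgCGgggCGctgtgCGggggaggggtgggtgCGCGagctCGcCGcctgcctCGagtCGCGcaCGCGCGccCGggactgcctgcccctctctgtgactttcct
Grik3, chr4:125490446-125490745, plus strand: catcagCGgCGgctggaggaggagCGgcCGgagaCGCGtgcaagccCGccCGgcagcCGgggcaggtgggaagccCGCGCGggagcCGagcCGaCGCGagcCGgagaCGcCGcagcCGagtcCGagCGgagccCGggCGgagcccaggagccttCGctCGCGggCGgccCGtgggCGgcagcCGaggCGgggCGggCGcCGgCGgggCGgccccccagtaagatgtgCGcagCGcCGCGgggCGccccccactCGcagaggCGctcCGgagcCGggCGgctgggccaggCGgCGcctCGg
Grm3, chr5:9725303-9725602, minus strand: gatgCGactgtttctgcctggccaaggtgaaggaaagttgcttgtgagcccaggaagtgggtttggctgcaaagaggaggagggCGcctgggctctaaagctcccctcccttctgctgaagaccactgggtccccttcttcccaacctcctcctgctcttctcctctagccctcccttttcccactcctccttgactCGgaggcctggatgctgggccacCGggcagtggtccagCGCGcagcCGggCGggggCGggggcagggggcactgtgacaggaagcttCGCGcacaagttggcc
Gabbr2, chr4:46991665-46991964, minus strand: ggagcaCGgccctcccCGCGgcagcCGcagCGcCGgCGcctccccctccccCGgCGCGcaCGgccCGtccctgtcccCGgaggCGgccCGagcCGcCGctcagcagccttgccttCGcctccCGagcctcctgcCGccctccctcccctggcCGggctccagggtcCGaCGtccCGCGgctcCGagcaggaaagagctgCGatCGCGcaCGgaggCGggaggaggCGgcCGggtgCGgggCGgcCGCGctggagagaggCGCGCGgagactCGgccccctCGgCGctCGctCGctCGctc
Glrb, chr3:80913611-80913910, minus strand: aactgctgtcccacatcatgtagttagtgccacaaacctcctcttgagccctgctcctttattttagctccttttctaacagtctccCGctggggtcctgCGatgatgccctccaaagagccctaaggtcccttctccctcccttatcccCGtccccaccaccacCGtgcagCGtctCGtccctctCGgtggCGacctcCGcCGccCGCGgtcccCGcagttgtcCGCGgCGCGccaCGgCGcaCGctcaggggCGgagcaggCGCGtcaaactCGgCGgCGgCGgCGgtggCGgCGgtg
Gabra3, chrX:72656758-72657057, minus strand: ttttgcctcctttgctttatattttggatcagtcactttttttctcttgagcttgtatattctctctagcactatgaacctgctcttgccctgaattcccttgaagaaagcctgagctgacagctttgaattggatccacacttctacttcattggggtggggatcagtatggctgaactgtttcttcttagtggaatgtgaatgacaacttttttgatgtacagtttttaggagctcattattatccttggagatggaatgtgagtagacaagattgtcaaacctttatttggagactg
Gabre, chrX:72274672-72274971, minus strand: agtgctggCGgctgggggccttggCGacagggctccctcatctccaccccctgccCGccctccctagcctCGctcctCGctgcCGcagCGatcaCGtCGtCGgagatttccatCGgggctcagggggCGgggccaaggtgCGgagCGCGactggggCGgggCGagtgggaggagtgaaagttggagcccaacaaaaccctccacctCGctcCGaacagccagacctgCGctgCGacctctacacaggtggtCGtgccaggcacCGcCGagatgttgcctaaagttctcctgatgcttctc

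Grik3 held 50 CpGs in its 300 bases, a number reached by 0.855% of the 32851 RefSeq promoters, and Gabbr2 held 46, reached by 1.65%. Glrb had 30 CpGs, Gria2 had 26 and Grm3 had 11, all above the median of 7 over all promoters. Of the unmarked pair, Gabra3 had 0 CpGs, whereas Gabre had 24, which 20% of promoters reached. The promoter sequence itself was not always under a peak. With 15000 EMPs all 300 bases were covered at Grm3, 236 at Glrb and 148 at Grik3, but 0 at Gria2 and Gabbr2, where the peaks began further from the start. With 500 EMPs 0 bases of these promoters were covered.

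For all 46 genes, CpG content was measured as the observed over expected ratio in the 500 bp on either side of the GENCODE start, where 1 means as many CpGs as the base composition predicts. The median ratio was 0.68 for the 20 genes marked in both libraries, 0.61 for the 14 marked with 15000 EMPs alone and 0.30 for the 12 marked in neither, beside 0.55 for all protein-coding genes. With a ratio of at least 0.6 taken as CpG-rich, 20 members were CpG-rich, and all 20 were marked with 15000 EMPs, against 20.9% of all CpG-rich genes. With 500 EMPs, 12 of these 20 were marked, against 13.1%. Among the 26 CpG-poor members, 14 were marked with 15000 EMPs (13.3% of all CpG-poor genes) and 8 with 500 EMPs (6.92%). CpG-poor receptor genes were therefore also marked at a higher share than CpG-poor genes at large. The highest ratio of an unmarked member was 0.54, at Gabre, and the lowest was 0.09, at Gabra3. The lowest ratios of marked members were 0.09 at Grin2d, whose peak lay 6927 bp from the GENCODE start, 0.21 at Gria1, 0.35 at Grm4 and 0.38 at Grm3.

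**Figure D2:**
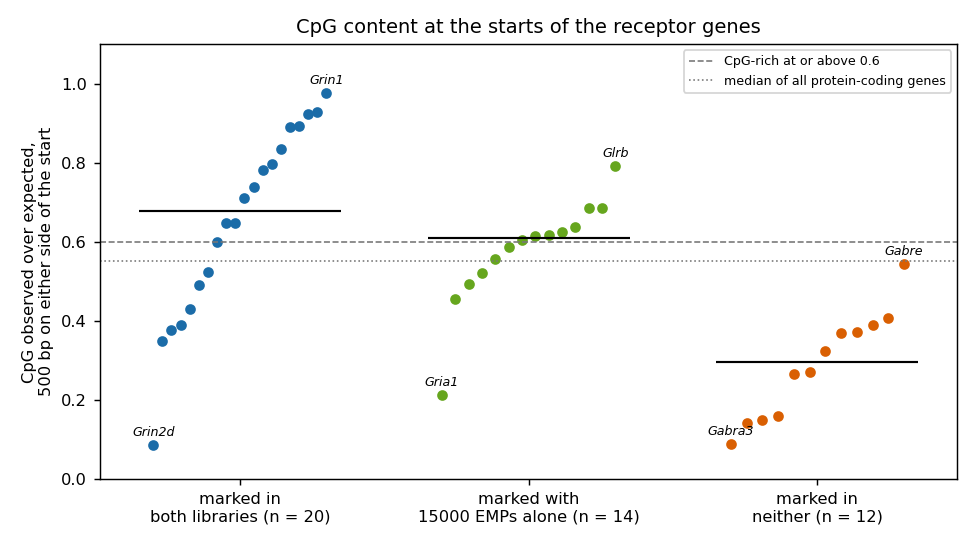
Each point is 1 receptor gene, plotted by its CpG observed over expected ratio within 500 bp of its start and grouped by the libraries in which it was marked, in rank order within a group. Black lines are medians (0.68, 0.61 and 0.30), the dashed line is the 0.6 split and the dotted line is the median of all protein-coding genes (0.55). All 12 unmarked genes lie below the split.

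Gene length ran in the same order. The median gene length was 203.8 kb for members marked in both libraries, 165.3 kb for those marked with 15000 EMPs alone and 59.8 kb for those marked in neither. All 3 medians exceeded that of all protein-coding genes, 17.4 kb. The shortest marked member was Grin3b (6.48 kb) and the longest was Grm7 (921.6 kb). Whether length or CpG content had a part in the difference between classes was not tested.

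AMPA receptor genes encode the channels that carry most fast excitatory transmission, and their marks were short and limited to the larger library. No Gria gene had a peak with 500 EMPs, and 3 of 4 had 1 peak each with 15000 EMPs. Gria2, whose subunit limits calcium entry, had a peak of 1784 bp inside the gene, 493 bp past the start (chr3:80800559-80802342). Gria1 had an 871-bp peak across its start (chr11:57011362-57012232). Gria4 had the narrowest widest peak of all 34 marked members, 426 bp, lying 1044 bp into the gene (chr9:4794765-4795190). Gria3, on the X chromosome, was unmarked in both libraries.

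Kainate receptor genes ranged from no mark to some of the widest peaks of the set. With 15000 EMPs 4 of 5 were marked and with 500 EMPs 3 of 5. Grik3 had the widest upstream domain of the set, an 8817-bp peak that ended 790 bp before the start (chr4:125481094-125489910), followed by a 4575-bp peak across the start (chr4:125490598-125495172). A further 12 Grik3 peaks of 171 to 2843 bp lay more than 3 kb away, at distances from 38184 bp upstream to 207414 bp into the gene. The upstream one was 810 bp wide (chr4:125451707-125452516). In the first part of the gene body, all in introns, lay peaks of 578 bp (chr4:125497485-125498062), 756 bp (chr4:125498369-125499124), 342 bp (chr4:125532846-125533187), 2843 bp (chr4:125534271-125537113), 519 bp (chr4:125545335-125545853) and 1839 bp (chr4:125573014-125574852). Deeper introns held peaks of 460 bp (chr4:125587728-125588187), 576 bp (chr4:125588490-125589065), 171 bp (chr4:125589365-125589535), 1871 bp (chr4:125695920-125697790) and 330 bp (chr4:125698114-125698443). The 500-EMP library had a 5023-bp peak (chr4:125484993-125490015) that shared 4918 bp with these peaks, the widest 500-EMP peak of any member, and a 991-bp peak 1219 bp past the start (chr4:125491919-125492909). Another 6 Grik3 peaks in that library lay beyond the limit, the nearest of them 3016 bp past the start. They were a 137-bp peak upstream (chr4:125451680-125451816) and intronic peaks of 750 bp (chr4:125493716-125494465), 155 bp (chr4:125496262-125496416), 502 bp (chr4:125535262-125535763), 137 bp (chr4:125587522-125587658) and 388 bp (chr4:125696926-125697313). Within 3000 bp on either side of the start, peaks covered 3307 bp at Grik3 with 500 EMPs and 5314 bp with 15000 EMPs.

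Grik4, a subunit that needs a partner from the other kainate class, was covered downstream of its start, by a 1477-bp peak with 500 EMPs and a 2746-bp peak with 15000 EMPs. It had 8 more peaks in the gene body with 15000 EMPs, the farthest 165533 bp from the start. Grik1 had a single 137-bp peak with 500 EMPs, the narrowest width in that list, and peaks of 1735 and 1299 bp with 15000 EMPs. Grik2 was marked with 15000 EMPs alone, by intronic peaks of 953 bp (chr10:49787487-49788439) and 389 bp (chr10:49786612-49787000), and another peak of 2515 bp lay 4294 bp into the gene (chr10:49781958-49784472). Grik5 was unmarked in both libraries.

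Grid1 encodes a delta subunit, which is related to the ionotropic receptors but acts as a synaptic organiser. It had more covered bases around its start than any other member in either library, 3434 bp with 500 EMPs and 5352 bp with 15000 EMPs. Its 15000-EMP peaks were 4128 bp across the start (chr14:34816293-34820420) and 1903 bp (chr14:34820754-34822656) and 1044 bp (chr14:34822973-34824016) inside the gene. With 500 EMPs a 1172-bp peak lay upstream (chr14:34817516-34818687), and peaks of 524 bp (chr14:34820138-34820661), 1738 bp (chr14:34821139-34822876) and 164 bp (chr14:34824293-34824456) lay inside, the last of them 4185 bp past the start. The start itself lay 30 bp outside the nearest 500-EMP peak.

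NMDA receptor genes were marked in 7 of 7 cases with 15000 EMPs and 6 of 7 with 500 EMPs. The 500-EMP count fell to 3 with a limit of 1 kb. Grin1, which encodes the subunit present in every NMDA receptor, had the widest peak of all 46 genes, 11446 bp inside the gene from 2320 bp past the start (chr2:25305422-25316867). Together with a 667-bp internal peak and a 2008-bp peak upstream, it left the Grin1 start uncovered, 90 bp from the nearest edge. The peaks named to Grin1 covered 43.2% of its gene body with 15000 EMPs and 8.56% with 500 EMPs, and peaks named to any gene covered 54.4% and 12.8%. With 500 EMPs, 5 of its 6 peaks lay more than 3 kb into the gene and the sixth, 137 bp wide, lay upstream.

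The glutamate-binding subunit genes Grin2a to Grin2d were all marked in both libraries but in different places. Grin2a had the most covered bases around the start of the NMDA genes, 3909 bp with 15000 EMPs, from peaks of 3601 bp (chr16:9990787-9994387), 1759 bp across the start (chr16:9994664-9996422) and 322 bp upstream (chr16:9996734-9997055). With 500 EMPs it had only 1 peak, 628 bp wide and 551 bp upstream (chr16:9996111-9996738). Grin2b had an 858-bp and an 1821-bp peak over the same stretch downstream of the start in the 500-EMP and 15000-EMP libraries. Grin2c was covered at both ends and had 48.3% of its 18.1-kb body under 15000-EMP peaks, of which the widest, 4656 bp, ran across its 3′ end. It was the only member with a peak of that category.

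Grin2d was the member whose marks depended on which start was used. Its 4775-bp peak with 15000 EMPs (chr7:45866677-45871451) crossed the start used by the authors' annotation, but lay 6927 bp inside the gene when measured from the GENCODE start. Further peaks of 241 bp (chr7:45860395-45860635) and 2725 bp (chr7:45856193-45858917) lay deeper in the gene. With 500 EMPs it had peaks of 137 bp (chr7:45871266-45871402), 328 bp (chr7:45870575-45870902) and 137 bp (chr7:45867542-45867678) within 3 kb of the authors' start. It also had a 137-bp (chr7:45861330-45861466) and a 302-bp peak (chr7:45857876-45858177) further in. Measured from GENCODE starts, Grin2d was unmarked in both libraries and every other marked gene kept its mark.

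The glycine-binding subunit genes Grin3a and Grin3b differed between the libraries. Grin3a had a 3044-bp peak across its start with 15000 EMPs and peaks of 608 and 137 bp on either side of it with 500 EMPs. Grin3b had a 2604-bp peak across its start with 15000 EMPs (chr10:79969848-79972451), the widest among the 14 genes marked in that library alone, and none with 500 EMPs.

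**Figure D3:**
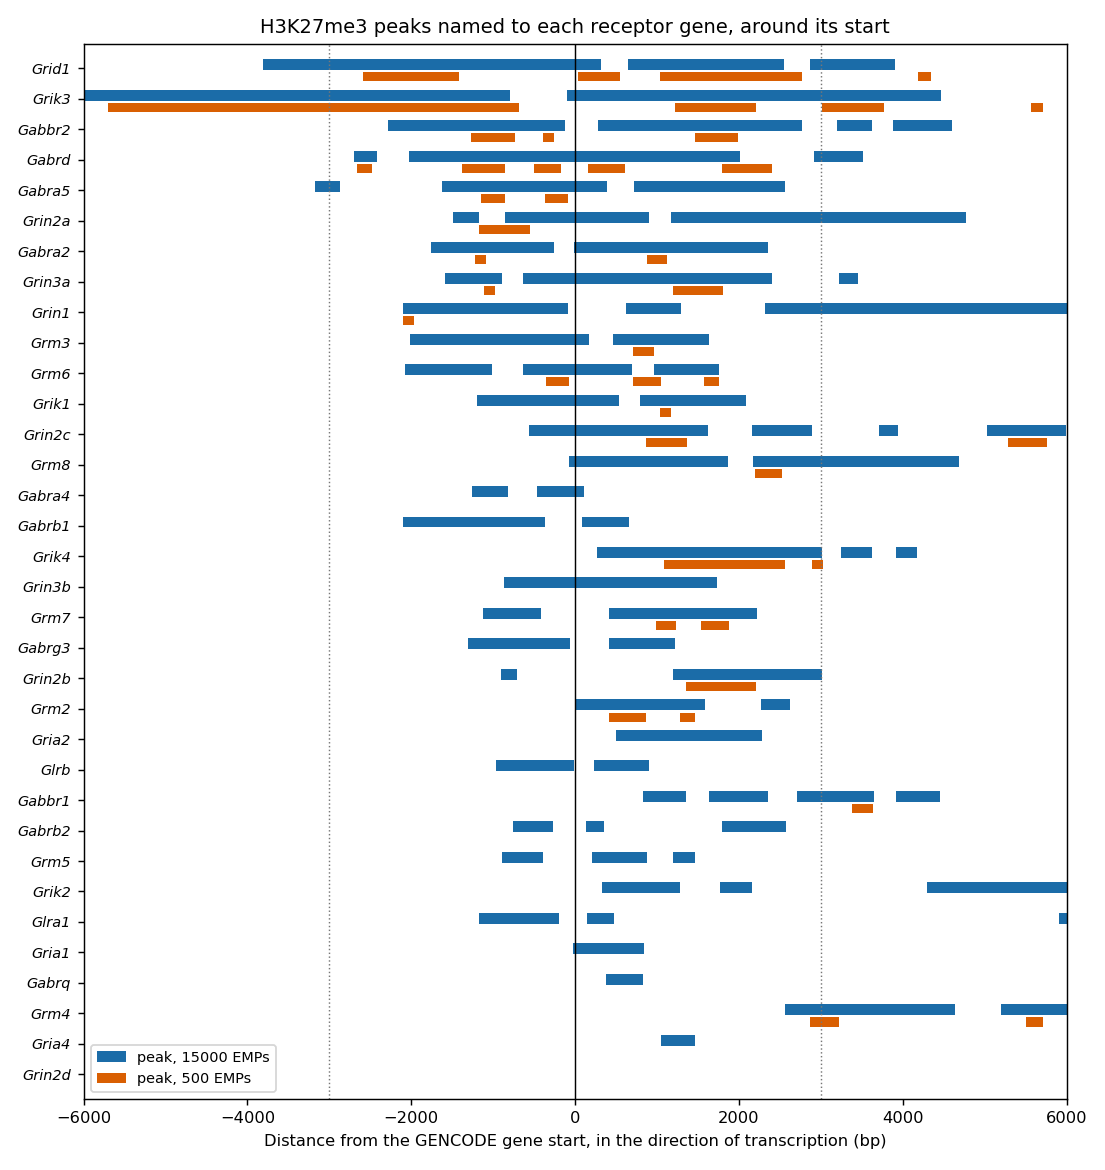
Horizontal bars are the peaks named to each of the 34 marked receptor genes, in bp from the GENCODE start in the direction of transcription, for 15000 EMPs (blue) and 500 EMPs (orange), with dotted lines at 3000 bp on either side and bars truncated at 6000 bp. Genes are ordered from top to bottom by bases covered around the start with 15000 EMPs, from Grid1 with 5352 bp to Grin2d with 0. No 500-EMP bar crosses the start line.

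Metabotropic glutamate receptor genes were marked in 7 of 7 cases with 15000 EMPs and 6 of 7 with 500 EMPs. With peaks of at least 500 bp the 500-EMP count was 0. Their 500-EMP peaks were short, with widest peaks of 267 to 457 bp per gene, and 664 to 2522 bp with 15000 EMPs. Grm3, of the group that also includes Grm2 and dampens transmitter release, had the most bases covered around its start, 3355 bp with 15000 EMPs, from a 2175-bp peak across the start (chr5:9725007-9727181) and a 1180-bp intronic peak (chr5:9723531-9724710). Its only 500-EMP peak was 267 bp wide (chr5:9724203-9724469). Grm2 had its peaks inside the gene, with the start 5 bp outside a 1579-bp peak with 15000 EMPs and 411 bp outside a 457-bp peak with 500 EMPs.

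Grm4, Grm6, Grm7 and Grm8 form the remaining inhibitory group and were all marked in both libraries. Grm6, the receptor of retinal ON bipolar cells, had 3 peaks in each library that flanked or crossed its start. Grm7 had peaks on both sides of its start with 15000 EMPs and 2 peaks downstream with 500 EMPs. Grm8 had a 330-bp peak with 500 EMPs that lay 2194 bp past the start, inside a 2522-bp peak of the other library. Grm4 was marked away from its GENCODE gene start: 9 peaks with 15000 EMPs and 6 with 500 EMPs lay inside the gene, from 2562 bp past the start onwards with 15000 EMPs. A 2950-bp peak among them (chr17:27513250-27516199) covered the start of another annotated Grm4 transcript, and a 634-bp peak with 500 EMPs (chr17:27513738-27514371) lay 12 bp from it. Its nearest 500-EMP peak, at 2863 bp in the authors' table, was the closest to the limit among the 20 members marked in that library. Grm5, the excitatory metabotropic receptor of the list, was marked with 15000 EMPs alone, by peaks of 504 bp upstream (chr7:87583274-87583777) and of 664 bp (chr7:87584378-87585041) and 263 bp (chr7:87585363-87585625) inside the gene.

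**Figure D4:**
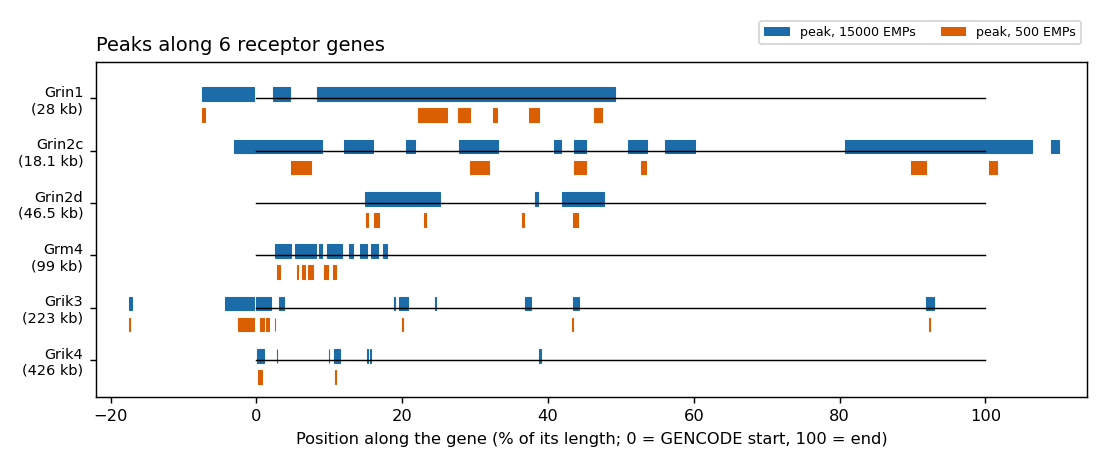
Peaks named to 6 glutamate receptor genes are drawn along each gene, scaled to its length (in kb beside the name), for 15000 EMPs (blue) and 500 EMPs (orange), with 0 at the GENCODE start and 100 at the gene end. Peaks too narrow for the scale are drawn as thin lines. Grin1 and Grin2c had 43.2% and 48.3% of their length under the 15000-EMP peaks drawn, Grin2d 16.6%, Grm4 10.2%, Grik3 6.60% and Grik4 2.22%.

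GABA-A receptor genes were the group with the most unmarked members, 8 of 16 with 15000 EMPs and 13 of 16 with 500 EMPs. The 3 marked in both libraries were Gabra2 and Gabra5, which encode alpha subunits, and Gabrd, which encodes the delta subunit of receptors outside synapses. Gabrd had the most covered bases, 4423 bp with 15000 EMPs, from a 4043-bp peak across the start (chr4:155396098-155400140), a 608-bp peak inside (chr4:155394594-155395201) and a 290-bp peak upstream (chr4:155400528-155400817). A 198-bp peak lay past its 3′ end (chr4:155382274-155382471). With 500 EMPs the 4043-bp stretch was broken into peaks of 615 bp (chr4:155395704-155396318), 458 bp (chr4:155397500-155397957), 340 bp (chr4:155398279-155398618) and 535 bp (chr4:155398963-155399497). The first of these extended past the edge of the wide peak. A 194-bp peak upstream (chr4:155400587-155400780) and a 158-bp peak near the 3′ end (chr4:155385076-155385233) made up the 6. Gabra2 had peaks of 2370 and 1504 bp with 15000 EMPs and of 244 and 137 bp with 500 EMPs, and Gabra5 had peaks of 2026, 1847 and 316 bp against 292 and 274 bp.

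The short 500-EMP peaks could be shown whole at genes where the widest was 200 to 300 bp, and 2 of them outside exons are given to show what the smaller library retained. Both are from GRCm38, read on the strand of the gene, with CpGs in capitals.
Grm3, chr5:9724203-9724469, minus strand: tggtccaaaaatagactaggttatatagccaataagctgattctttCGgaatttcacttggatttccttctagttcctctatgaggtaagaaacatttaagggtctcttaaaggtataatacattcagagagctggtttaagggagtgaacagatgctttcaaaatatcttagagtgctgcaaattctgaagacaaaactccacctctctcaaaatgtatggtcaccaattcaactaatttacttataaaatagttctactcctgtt
Gabra5, chr7:57510918-57511209, minus strand: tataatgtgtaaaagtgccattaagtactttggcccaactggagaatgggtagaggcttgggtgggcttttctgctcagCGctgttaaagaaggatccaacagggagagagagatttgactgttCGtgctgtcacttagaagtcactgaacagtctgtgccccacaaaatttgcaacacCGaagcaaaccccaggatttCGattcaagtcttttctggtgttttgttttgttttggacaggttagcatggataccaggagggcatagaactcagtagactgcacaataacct

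The Grm3 peak, in an intron 701 bp past the start, had 1 CpG in 267 bp, and the Gabra5 peak, 859 bp upstream of the start, had 4 CpGs in 292 bp. Each lay entirely under a 15000-EMP peak. CpG content within the peaks was lower than around the starts. The median CpG ratio was 0.26 over the 42 member peaks of the 500-EMP library and 0.34 over the 71 of the 15000-EMP library. Over the peaks within 3 kb of any gene the medians were 0.32 and 0.36.

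A further 5 GABA-A genes were marked with 15000 EMPs alone. Gabra4 and Gabrb1 run in opposite directions from starts 195 bp apart, and a 579-bp peak (chr5:71658195-71658773), which crossed the Gabra4 start and lay 82 bp past the Gabrb1 start, was named to both. Also named to Gabra4 were a 448-bp peak (chr5:71659125-71659572) and, 40709 bp upstream, a 1609-bp peak (chr5:71699017-71700625). A 1732-bp peak (chr5:71656017-71657748) was named to Gabrb1. By position, the 448-bp and 1609-bp peaks lay within Gabrb1, and the 1732-bp peak lay within Gabra4. These peaks lie in 1 shared region, so the pair is not independent in the counts. Gabrb2 had peaks of 496 bp (chr11:42418993-42419488), 222 bp (chr11:42419890-42420111) and 784 bp (chr11:42421550-42422333) on either side of its start. Gabrg3 had peaks of 1245 bp upstream (chr7:57387255-57388499) and 808 bp inside (chr7:57385965-57386772). Gabrq, a theta subunit gene on the X chromosome, had a 463-bp peak 372 bp past its start (chrX:72825550-72826012).

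The GABA-A genes marked in neither library were Gabra3, Gabra6, Gabre, Gabrg1, Gabrp, Gabrr1, Gabrr2 and Gabrr3. They included all 3 rho subunit genes, which are best known from the retina, and the pi subunit gene Gabrp, which is known from tissues outside the brain. Marked and unmarked genes stood side by side in the same clusters. On chromosome 5, unmarked Gabrg1 lay 114980 bp from Gabra2, which was marked in both libraries, and on chromosome 11 unmarked Gabra6 lay 98685 bp from Gabrb2. On chromosome 7, Gabrg3 and Gabra5 were 20484 bp apart, and both were marked with 15000 EMPs but only Gabra5 with 500 EMPs.

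Both GABA-B genes were marked with 15000 EMPs. Gabbr2, the subunit that couples to the G protein, had 4646 bp covered around its start, from peaks of 2155 bp upstream (chr4:46992003-46994157) and 2491 bp inside (chr4:46989100-46991590) that left the start 130 bp uncovered at its nearest edge. Peaks of 438 bp (chr4:46988244-46988681) and 717 bp (chr4:46987271-46987987) followed beyond 3 kb, and a 206-bp peak lay 119711 bp into the gene (chr4:46871957-46872162). With 500 EMPs Gabbr2 had peaks of 533 bp (chr4:46992608-46993140) and 137 bp (chr4:46992129-46992265) upstream and of 532 bp (chr4:46989879-46990410) downstream, and a 137-bp peak in the distant intron (chr4:46871875-46872011). Gabbr1, the subunit that binds GABA, was marked with 15000 EMPs by peaks of 522 bp (chr17:37046798-37047319), 719 bp (chr17:37047598-37048316) and 947 bp (chr17:37048673-37049619), with another of 539 bp (chr17:37049880-37050418) beyond the limit. A 253-bp peak with 500 EMPs (chr17:37049349-37049601) lay 3383 bp from its start, just outside the limit, so Gabbr1 counted as unmarked in that library.

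Glycine receptor genes had no peak with 500 EMPs. With 15000 EMPs, Glrb, the beta subunit that anchors the receptor at synapses, had peaks of 957 bp (chr3:80913675-80914631) and 662 bp (chr3:80912764-80913425) that began 15 bp before and 235 bp after the start. Glra1, the main adult alpha subunit, had peaks of 974 bp (chr11:55608394-55609367) and 331 bp (chr11:55607728-55608058) on either side of its start and one of 286 bp further in (chr11:55602005-55602290). Glra2 and Glra3 were unmarked.

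Of the 12 unmarked genes, 4 were X-linked: Gria3, Gabra3, Gabre and Glra2. Of the 5 X-linked members 1 was marked with 15000 EMPs and 0 with 500 EMPs, where 9.6% and 4.75% of all X-linked genes were. The Wilson intervals of these X-linked members, 3.62 to 62.4% with 15000 EMPs and 0 to 43.4% with 500 EMPs, include those shares. Among the 41 autosomal members 33 were marked with 15000 EMPs (80.5%) and 20 with 500 EMPs (48.8%). Over all protein-coding genes of any chromosome the shares were 16.8% and 9.77%. With only 5 X-linked members, a difference between X-linked and autosomal members was not tested. The starts of all 12 unmarked genes were distant from any peak: with 15000 EMPs the nearest peak lay from 56.0 kb (Gabrr1) to 2026.6 kb (Gria3) away.

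The median widest peak at receptor genes was narrower than that of marked genes at large. Only peaks within the 3-kb limit were ranked. The widest peak per marked member had a median of 1814.5 bp with 15000 EMPs (2308 bp over all marked protein-coding genes) and of 409.5 bp with 500 EMPs (538.5 bp). With peaks joined across gaps of up to 3 kb the medians were 3745 bp (3991 bp) and 2027 bp (2346 bp). Peaks wider than 5 kb were found at 2 of 34 members with 15000 EMPs, Grik3 and Grin1, whereas 16.7% of all marked genes had such a peak. With 500 EMPs 1 of 20 members had one, Grik3 (5%), against 1.17% of all marked genes. The members marked in both libraries had wider 15000-EMP peaks than those marked with 15000 EMPs alone, with medians of 2506.5 bp (range 1331 to 11446) and 950 bp (range 426 to 2604). The same order held over all genes, at 3430.5 and 1090 bp. By family, the median widest peak with 15000 EMPs was 4128 bp for the single delta gene Grid1, 3601 bp for NMDA, 2240.5 bp for kainate, 1808 bp for metabotropic, 1719 bp for GABA-B, 1488.5 bp for GABA-A, 965.5 bp for glycine and 871 bp for AMPA receptor genes.

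By location, the members' peaks lay inside genes more often than across starts. With 15000 EMPs, 35 of 72 gene-peak pairs within the limit were inside the gene (48.6%, against 36.4% for all genes), 18 were upstream (25%, against 28.6%), 16 ran across the start (22.2%, against 25.2%), 2 were downstream and 1 crossed the gene end. With 500 EMPs, 25 of 42 were inside (59.5%, against 46.3%), 16 upstream (38.1%, against 37.8%), 1 downstream and 0 across the start (against 6.31%). The GENCODE start was under a peak at 15 of the 46 genes with 15000 EMPs (8.63% of all protein-coding genes) and at 0 of 46 with 500 EMPs (1.4%). Among marked genes, these were 44.1% of members against 50.3% of all marked genes with 15000 EMPs, and 0 of 20 against 14% with 500 EMPs. Peaks on both sides of an uncovered start were found at 10 of 34 members with 15000 EMPs (29.4%, against 19.3%) and 7 of 20 with 500 EMPs (35%, against 36.3%).

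Averaged over marked members, coverage dipped at the start and was highest downstream of it. With 15000 EMPs the 100-bp bin at the start was covered in 47.4% on average, rising to 76.4% in the bin 1200 bp downstream and to 60.4% at 500 bp upstream. With 500 EMPs these values were 3.50% at the start, 40.0% at 1600 bp downstream and 30.8% at 1100 bp upstream. Over all marked genes coverage was also lower at the start than downstream, from 50.2% at the start to 67.5% at 1000 bp downstream with 15000 EMPs and from 13.5% to 28.6% at 1300 bp with 500 EMPs. The curve for 500 EMPs rests on 20 genes, so that 1 gene moves a bin by 5 percentage points.

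**Figure D5:**
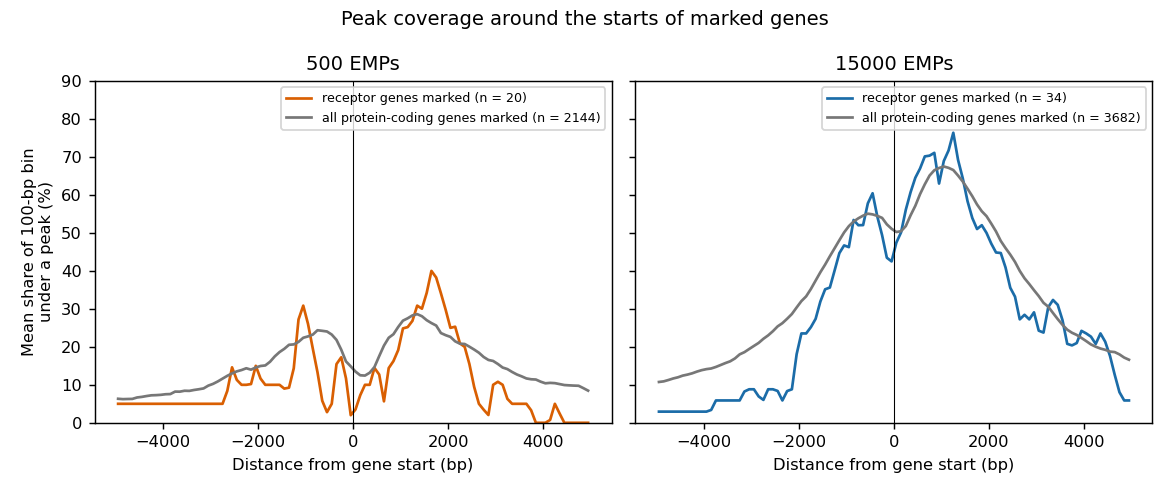
Lines give the mean share of each 100-bp bin that was under a peak, from 5000 bp before to 5000 bp after the GENCODE start, for marked receptor genes (coloured) and all marked protein-coding genes (grey), in the 500-EMP (left) and 15000-EMP (right) libraries. At the start the receptor genes were at 3.50% and 47.4%, below the maxima of 40.0% and 76.4% downstream.

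Nearly all 500-EMP peaks at members lay at places also called with 15000 EMPs, but not the reverse. Of the 42 peaks with 500 EMPs within 3 kb of a member, 41 overlapped a 15000-EMP peak, and 92.5% of their bases were shared, against 96.1% of peaks and 95.5% of bases for peaks within 3 kb of any gene. In the other direction, 31 of 71 peaks with 15000 EMPs were overlapped (43.7%), with 20.3% of their bases, against 42.4% of peaks and 26.7% of bases for any gene. Of the peaks named to members beyond 3 kb, 21 of 26 with 500 EMPs overlapped a 15000-EMP peak (80.8%, against 85.8%) and 11 of 45 with 15000 EMPs were overlapped (24.4%, against 23.4%).

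Other genes of the same transmitter systems were marked at similar shares. Of 47 listed genes for transport, synthesis, receptor accessory subunits and scaffolds, 18 were marked with 500 EMPs (38.3%) and 31 with 15000 EMPs (66%). Among vesicular transporters, which load transmitter into synaptic vesicles, Slc17a6, Slc17a7 and Slc32a1 were marked in both libraries and Slc17a8 in neither. Their widest 15000-EMP peaks were 5594 bp, 5384 bp and 11311 bp. Gad2, which makes GABA, had a 9903-bp peak with 15000 EMPs and a 360-bp peak with 500 EMPs, whereas Gad1, its paralogue, was unmarked. In all, 3 of 6 enzyme genes were marked with 15000 EMPs and 1 with 500 EMPs.

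Transporters that clear glutamate were marked in 4 of 5 cases with 15000 EMPs and 2 of 5 with 500 EMPs (Slc1a2 and Slc1a6). GABA and glycine transporters were marked in 4 of 6 cases with 15000 EMPs and 3 of 6 with 500 EMPs. The glycine transporter gene Slc6a5 had a 13197-bp peak with 15000 EMPs and a 990-bp peak with 500 EMPs, whereas Slc6a9, the other glycine transporter gene, was unmarked in both libraries. Auxiliary subunits of AMPA and kainate receptors were marked in 10 of 13 cases with 15000 EMPs and 7 of 13 with 500 EMPs, Cacng4, Cacng5, Cacng7, Cnih3, Neto1, Shisa6 and Shisa7. Scaffold genes, many of which are used outside synapses, were marked in 7 of 13 cases with 15000 EMPs and 2 of 13 with 500 EMPs (Shank1 and Homer2).

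Receptors and channels of other kinds gave a range of shares that included those of the 46 genes. Nicotinic acetylcholine receptor genes were marked in 4 of 16 cases with 500 EMPs (25%) and 7 of 16 with 15000 EMPs (43.8%). Genes for serotonin, dopamine and adrenergic receptors were marked in 18 of 28 (64.3%) and 24 of 28 cases (85.7%), and potassium channel genes in 42 of 94 (44.7%) and 66 of 94 (70.2%). The shares of the glutamate, GABA and glycine receptor genes, 43.5% and 73.9%, lay between the nicotinic and the amine receptors in both libraries.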

How the data were processed

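H3K27me3 CUT&RUN peaks from 500 and 15000 EMPs were analysed, 1 library each. The authors aligned reads to mm10 with Bowtie2 (version 2.2.1), called broad peaks per library with MACS2 (version 2.1.2) against IgG of the same input, at p-value thresholds of 0.01 (500 EMPs) and 0.05 (15000 EMPs), and annotated them with ChIPpeakAnno (version 3.20.1). A reporting summary names the libraries the other way round for these thresholds, and the files were taken as labelled. Per the labels, libraries had 17 (500 EMPs) and 16 (15000 EMPs) PCR cycles and 76-bp and 59-bp reads. The deposited files hold peak positions, location categories and distances in bp, with no score or count, so the depth behind a peak is unknown. The study states that 500 EMPs were sequenced less deeply and aligned at a far lower rate, and this was not corrected for. They list 10223 and 15282 peaks.

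Peak ends were taken from the peak lists, since ends in the annotated tables were 1 bp higher. Genes were placed with GENCODE vM21 on GRCm38 (mm10). Coverage was the bases under peaks within 3000 bp of the start. The CpG ratio was the number of CpGs times the window length over the product of the C and G counts. Overlap meant at least 1 shared bp. Scripts used Python 3.11.15 and pandas 2.3.3 and were tested on simulated data. Given in full were the member with the most covered bases in each family, members marked in 1 library alone and members with no peak near the GENCODE start. The members and lists were chosen with earlier results of these data known. Some genes of the comparison lists are not reported here by name.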

Additional observations from a re-analysis of the deposited data

How the results depend on the processing

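Marked members numbered 20 with 500 EMPs and 34 with 15000 EMPs. Of 139 alternative values, 125 stayed within 1.5 times the reported value. With a limit of 1 kb, 13 members were marked with 500 EMPs (7.47% of all genes), and the Grik and Grin counts fell to 1 and 3. With peaks of at least 500 bp, 9 were marked with 500 EMPs (5.23% of all genes), with Grm at 0 and Gabr at 1. With a limit of 5 kb Gabbr rose to 2 through Gabbr1. With 15000 EMPs the count lay between 32 and 34 under every limit, width minimum and choice of start tried. Joining peaks within 3 kb raised the median widest peak to 2027 bp (500 EMPs) and 3745 bp (15000 EMPs), against 2346 and 3991 bp over all marked genes. With a CpG ratio of at least 0.5 taken as CpG-rich, chosen after seeing the data, 1 unmarked member, Gabre, was CpG-rich. In the comparison lists, nicotinic receptor genes fell to 2 with 500 EMPs at 1 kb, and nicotinic, amine receptor and potassium channel genes fell to 1, 10 and 23 with peaks of at least 500 bp. Why these counts moved was not tested, other than that a narrower limit or a width minimum leaves fewer peaks. No paired analysis was possible because each group had 1 library, and no library could be left out. Peak lists without heights limit every statement to the presence of a called peak.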
